A study of Mus musculus with 36 samples.

Results

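Chemokines are small secreted proteins that direct the movement of leukocytes, and their receptors are G protein-coupled receptors on the cells that respond. The genes described here are the chemokine ligands and receptors measured in epididymal white adipose tissue, the visceral fat pad beside the epididymis of male mice. A gene was taken if a probe on the array carried a name starting with Ccl, Cxcl, Cx3cl, Xcl, Ccr or Cxcr and a number. It was kept if its Cy5 signal stood well above background on at least 9 of the 12 arrays of at least 1 group. Of 47 such genes (59 probes), 33 were kept, 26 ligands and 7 receptors, among 16497 genes that passed the same filter. The other 14 were too dim: Ccl1, Ccl20, Ccl22, Ccl28, Ccr1, Ccr10, Ccr1l1, Ccr4, Ccr8, Ccr9, Cxcl11, Cxcl15, Cxcl2 and Cxcl5. Of the kept genes, 23 were well above background on all 12 arrays of every group, and 5 (Ccr3, Ccr6, Ccr7, Cxcl1 and Xcl1) fell short of 9 arrays in at least 1 group. A gene that passed the filter only through the group or groups where it is high tends to differ between groups. Counts over the kept genes thus describe those genes and not all 47.

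The tissue came from 36 adult male C57BL/6J mice, an inbred strain, which all ate a purified high-fat diet with 30% of its energy as fat, without limit, for 3 weeks. The 12 HF-DR mice were then restricted for 12 weeks on this diet, enriched in vitamins and minerals, and the labels give their ration as 70 en%. The 12 HF-AL mice ate it without limit for those 12 weeks, and the 12 t0 mice were killed when the 3 weeks ended. The HF-DR diet thus differed from that of HF-AL mice in its amount and in this added premix, meant to keep vitamin and mineral intake equal, and a comparison with t0 also spans 12 weeks. No group ate a low-fat diet, and the labels give no age beyond adult. Each animal's RNA, labelled with Cy5, shared a 2-colour Agilent array with a Cy3-labelled pool of all samples. All levels below are log2 ratios of animal to pool, so 0 is the pool's level, 1 is a doubling, and levels of different genes cannot be set against each other.

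In adipose tissue, chemokines are made by adipocytes, fibroblasts, endothelium and resident macrophages. The ligands of the Ccl2 type draw monocytes, the eotaxins Ccl11 and Ccl24 draw eosinophils, and Cxcl9 and Cxcl10 draw activated T cells. Obesity is known to raise several of them in fat, where macrophages then gather. In whole tissue, fewer cells of a type and less RNA per cell cannot be told apart.

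Restriction was followed by opposite shifts within the family. Ccl12 and Ccl8 rose and their neighbours Ccl2, Ccl7 and Ccl11 fell, while Ccl24, Ccl9, Ccl6 and the scavenging receptor Cxcr7 fell at least 2-fold. Of these, the calls of Ccl8, Ccl7 and Ccl11 against HF-AL each ended under at least 1 alternative setting. Between HF-DR and HF-AL mice 19 of the 33 genes changed, 5 higher and 14 lower (57.6%, limma with Benjamini-Hochberg adjustment, adjusted p under 0.05). Cxcl1, among the 14 lower, was kept only through HF-AL and t0, where it is high. Of all genes tested 64.8% changed, 28.8% higher and 35.9% lower. The share of changed chemokine genes was thus near the background. The median difference of the 33 genes was -0.24, and that of all genes was -0.04. Of the 26 ligands 18 changed (5 higher, 13 lower), and of the 7 receptors 1 changed, Cxcr7. At least 1.5-fold differences were found for 11 genes and at least 2-fold for 5. All genes were not counted at these folds, so no background stands beside either count. For 4 genes (Ccl24, Ccl6, Ccl9 and Cxcr7) the 12 HF-DR arrays and the 12 HF-AL arrays did not overlap, which held for 14.4% of all genes.

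**Figure D1:**
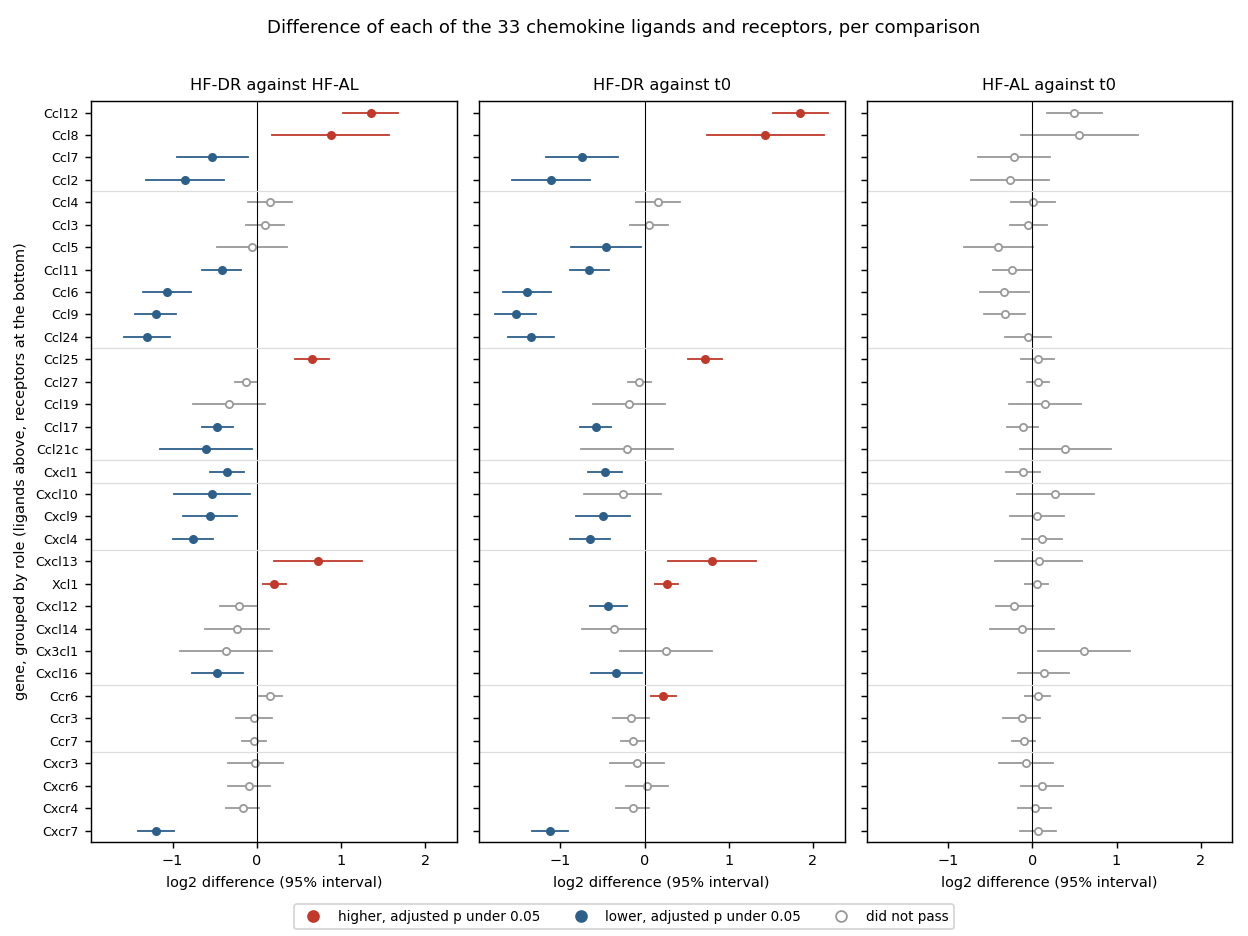
Log2 difference of the 33 chemokine genes in each comparison (points, with 95% intervals as lines), grouped by role from ligands at the top to receptors at the bottom; filled points passed at adjusted p under 0.05. In HF-DR against HF-AL 5 genes that passed lie to the right and 14 to the left, and in HF-AL against t0 no point is filled.

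Several arrays stood apart. Transcripts of the male reproductive tract, which adjoins this fat pad, were known from earlier results of these data on 7 arrays: HF-DR 7, 8 and 9, HF-AL 5, 7 and 9 and t0 6. The mean level of 11 measured tract markers was 3.37 and 3.24 on arrays 8 and 9 of HF-DR and -0.39 on array 7. It was -2.70, -2.07 and -2.67 on HF-AL 5, 7 and 9 and -2.16 on t0 6. The median was -3.04 over the HF-DR arrays, -3.49 over the HF-AL arrays and -3.61 over the t0 arrays. Of the 11 tract markers 6 were higher and 0 lower in HF-DR against HF-AL, where 28.8% of all genes were higher and 35.9% lower. On HF-DR 8 and 9 the mean of 14 mature adipocyte markers was also low, -1.26 and -1.15, against a median of -0.12 over the HF-DR arrays. Without these 7 arrays, 16 of the 33 chemokine genes changed between HF-DR and HF-AL, where 66.8% of all genes did. Between HF-DR and t0 19 of the 33 changed, where 66.4% of all genes did. HF-DR 1, at -2.46, lay above HF-AL 5 and 9, and leaving it out as well gave the same counts, 16 and 19 (65.6% and 65.3% of all genes). The share of spots well above background ran from 44.6% to 86.3% per array. The arrays lay on 21 slides, and HF-DR and HF-AL arrays shared only 3 of them, so within-slide values are given beside results that passed, where they add to them.

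The promoters of 6 genes that changed at least 1.5-fold are shown first, since Ccl12 and Ccl8 are neighbours that rose together, Ccl9 and Ccl6 neighbours that fell together, Cxcl13 a ligand that rose and Cxcr7 the receptor that fell. They were chosen after their values were seen. Each is the 250 bases before the start of the gene (RefSeq, GRCm38.p6), 5′ to 3′ on the strand of the gene. Capitals mark matches, on either strand, to the letters TATAAA (a core promoter box) or TTGCNNAA (bound by C/EBP factors), and TTCNNNGAA (bound by STAT proteins) had none in these 6 windows.
Ccl12 (chr11:82101595-82101844, plus strand): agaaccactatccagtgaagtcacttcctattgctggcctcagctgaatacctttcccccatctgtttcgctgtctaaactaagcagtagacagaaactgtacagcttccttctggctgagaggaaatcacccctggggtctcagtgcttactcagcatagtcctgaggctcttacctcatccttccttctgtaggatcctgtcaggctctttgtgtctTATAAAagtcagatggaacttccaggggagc
Ccl8 (chr11:82114935-82115184, plus strand): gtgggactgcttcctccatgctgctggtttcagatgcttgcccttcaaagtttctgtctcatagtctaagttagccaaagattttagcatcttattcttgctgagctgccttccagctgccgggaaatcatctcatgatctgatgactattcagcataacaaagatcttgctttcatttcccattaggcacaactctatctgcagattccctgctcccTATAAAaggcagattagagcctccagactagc
Cxcl13 (chr5:95956689-95956938, plus strand): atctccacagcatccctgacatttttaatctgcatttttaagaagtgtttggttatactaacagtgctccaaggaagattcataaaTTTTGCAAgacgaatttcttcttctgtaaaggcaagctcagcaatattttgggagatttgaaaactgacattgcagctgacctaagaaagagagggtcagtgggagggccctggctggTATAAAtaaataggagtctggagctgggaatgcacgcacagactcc
Ccl9 (chr11:83578637-83578886, minus strand): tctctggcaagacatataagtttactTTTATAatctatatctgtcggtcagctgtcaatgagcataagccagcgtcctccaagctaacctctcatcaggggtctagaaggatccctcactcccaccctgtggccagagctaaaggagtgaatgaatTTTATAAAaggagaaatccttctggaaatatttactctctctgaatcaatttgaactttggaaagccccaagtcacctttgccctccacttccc
Ccl6 (chr11:83593088-83593337, minus strand): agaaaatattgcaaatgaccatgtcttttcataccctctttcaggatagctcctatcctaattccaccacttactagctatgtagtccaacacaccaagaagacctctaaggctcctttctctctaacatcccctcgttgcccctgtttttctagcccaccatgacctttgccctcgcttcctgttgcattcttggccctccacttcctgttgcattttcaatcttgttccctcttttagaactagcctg
Cxcr7 (chr1:90203730-90203979, plus strand): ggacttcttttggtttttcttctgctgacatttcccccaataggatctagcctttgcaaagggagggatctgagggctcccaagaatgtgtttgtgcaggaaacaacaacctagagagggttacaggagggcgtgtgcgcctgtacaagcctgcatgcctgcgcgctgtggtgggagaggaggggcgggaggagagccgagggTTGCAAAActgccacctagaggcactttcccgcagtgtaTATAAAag

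The core promoter box letters stood 31 bases before the start of Ccl12 and 32 bases before that of Ccl8. In Cxcl13 they stood 46 bases before the start, and in Cxcr7 only 8 bases before it. They were found in 12.4% of the 32851 promoters of the table and in 9 of the 28 entries of the chemokine genes (24 of the 33 genes had an entry). In Ccl9 they occurred 92 bases before the start on the strand of the gene and 94 and 224 bases before it on the other, and none were found in the window of Ccl6. The C/EBP letters, held by 9.56% of all promoters, lay in the windows of Cxcl13 and Cxcr7 and in 5 of the 28 entries. The STAT letters were held by 7.02% of all promoters and by those of Ccl17, Cxcl14 and Ccr6. A match is a run of letters and not a shown binding site.

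The 4 monocyte attractants of the Ccl2 type lie in 1 stretch of chromosome 11 and split into 2 pairs. Ccl12 (probe at chr11:81919403-81919462, mm8), a mouse attractant of monocytes, read 0.58 at its lowest, 1.18 at the median and 1.85 at its highest in HF-DR mice. In HF-AL mice it read -0.78, -0.21 and 0.88, and in t0 mice -0.999, -0.77 and -0.17. Every HF-DR array was above every t0 array, and all but the highest 2 HF-AL arrays lay below the lowest HF-DR array. The difference of HF-DR against HF-AL was 1.35 ± 0.16 (SE, n = 12 each), 2.55-fold higher (limma, adjusted p = 3.7e-09), and 1.29 to 2.23 within the 3 shared slides. Against t0 it was 1.85 ± 0.16, 3.61-fold higher (limma, adjusted p = 2.1e-12), and 1.07 to 2.25 within 6 slides.

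Ccl8 (chr11:81932801-81932860, mm8), a monocyte attractant that in mice also acts on Ccr8, varied more. It read -1.43, 0.42 and 1.38 (lowest, median, highest) in HF-DR mice, -1.65, -0.71 and 0.99 in HF-AL mice and -2.11, -1.17 and 1.04 in t0 mice, so all groups overlapped. Ccl8 was higher in HF-DR by 0.88 ± 0.34 against HF-AL (limma, adjusted p = 0.024) and by 1.44 ± 0.34 against t0 (adjusted p = 0.00042). Without the 7 arrays with tract transcripts the first difference was 1.48, and with slide as a block it was 0.59 and did not pass, nor did it, at 0.66, with the background fitted with all spots. On 2 of the 6 slides shared by HF-DR and t0 the HF-DR arrays were lower, by values of -1.31 and -0.08.

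Ccl2 (chr11:81853343-81853402, mm8), the best known monocyte attractant of obese fat, was printed in 10 spots per array, whose SD on an array had a median of 0.082. It read -1.77, -0.76 and 0.41 in HF-DR mice, -0.90, 0.13 and 1.05 in HF-AL mice and -0.54, 0.04 and 1.49 in t0 mice. The groups overlapped, with the HF-DR median below those of HF-AL and t0. Ccl2 was lower in HF-DR by -0.85 ± 0.23 against HF-AL, 1.8-fold (limma, adjusted p = 0.0014), and by -1.11 ± 0.23 against t0, 2.16-fold (adjusted p = 6.4e-05). Within slides it read -1.32 to -0.64 on the 3 slides with HF-AL and -2.37 to -0.31 on the 6 with t0.

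Ccl7 (chr11:81863349-81863408, mm8), a relative of Ccl2 that draws monocytes and eosinophils, read -1.18, -0.56 and 0.22 in HF-DR mice, -0.73, -0.08 and 1.10 in HF-AL mice and -0.33, -0.11 and 1.51 in t0 mice. The 3 groups overlapped. It was lower in HF-DR by -0.53 ± 0.21 against HF-AL (limma, adjusted p = 0.028) and by -0.75 ± 0.21 against t0 (adjusted p = 0.0023). With slide as a block the second was -0.59 and did not pass, and HF-DR arrays were higher on 2 of the 6 slides shared with t0. The first is not firm either. A second Ccl7 probe read -0.38 and did not pass, the difference was 0.15 on 1 of the 3 shared slides, and it was -0.41 and did not pass without the arrays with tract transcripts. Leaving out HF-AL 8, HF-DR 5 or HF-DR 8 alone also ended the call, with differences of -0.43 at the weakest.

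**Figure D2:**
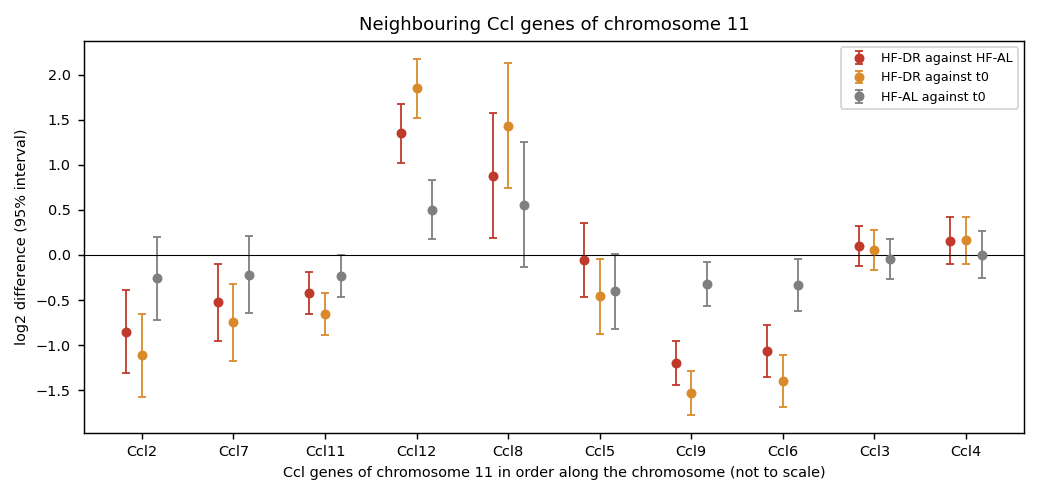
Log2 differences (points, with 95% intervals) of the 10 measured Ccl genes of the 2 stretches of chromosome 11, in chromosome order and not to scale. Ccl2, Ccl7 and Ccl11 lie below 0 in HF-DR against HF-AL and Ccl12 and Ccl8 above it; Ccl9 and Ccl6 lie lowest in HF-DR against t0, and Ccl3 and Ccl4 near 0.

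Between Ccl7 and Ccl12 on the chromosome lies Ccl11 (chr11:81878765-81878824, mm8), eotaxin, which draws eosinophils through Ccr3. It read -1.61, -0.43 and -0.04 in HF-DR mice, -0.48, -0.16 and 0.13 in HF-AL mice and -0.22, 0.11 and 0.32 in t0 mice. The groups overlapped, with the HF-DR median lowest and the t0 median highest. Ccl11 was lower in HF-DR by -0.42 ± 0.11 against HF-AL (limma, adjusted p = 0.0017) and by -0.66 ± 0.11 against t0 (adjusted p = 5.6e-06). With slide as a block the first difference was -0.14 and did not pass, while the 3 shared slides gave -0.36 to -0.18.

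Of 7 further CC ligands (Ccl3, Ccl4, Ccl5, Ccl6, Ccl9, Ccl11 and Ccl24), 4 fell in HF-DR against HF-AL and none rose. Ccl24 (chr5:135855242-135855301, mm8), the second eotaxin, made by alternatively activated macrophages, read -2.17, -1.01 and -0.57 in HF-DR mice. In HF-AL mice it read -0.21, 0.22 and 0.40, and in t0 mice -0.19, 0.22 and 0.59. No HF-DR array reached the lowest array of the others. The difference was -1.30 ± 0.13 against HF-AL, 2.46-fold lower (limma, adjusted p = 1.6e-10), and -1.35 ± 0.13 against t0, 2.55-fold lower (adjusted p = 6.3e-11). A second Ccl24 probe read -1.06 against HF-AL, and the 3 shared slides gave -1.40 to -1.02.

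Ccl9 (chr11:83390916-83390975, mm8) and Ccl6 (chr11:83404690-83404749, mm8) are neighbouring rodent chemokines that act on Ccr1 and are made by myeloid cells. Ccl9 read -2.01, -1.15 and -0.66 in HF-DR mice, -0.36, -0.01 and 0.49 in HF-AL mice and -0.05, 0.33 and 0.73 in t0 mice. Ccl6 read -2.39, -1.08 and -0.85 in HF-DR mice, -0.52, -0.27 and 0.25 in HF-AL mice and -0.40, 0.04 and 0.57 in t0 mice. For both genes all 12 HF-DR arrays lay below all 24 others, and the lowest array was HF-DR 8. Ccl9 was 2.3-fold lower than in HF-AL (-1.20 ± 0.12, limma, adjusted p = 6.4e-11) and 2.89-fold lower than in t0 (-1.53 ± 0.12, adjusted p = 1.5e-13). Ccl6 was 2.09-fold lower than in HF-AL (-1.07 ± 0.14, limma, adjusted p = 4.2e-08) and 2.64-fold lower than in t0 (-1.40 ± 0.14, adjusted p = 9.9e-11). Within the slides shared with HF-AL, Ccl9 read -1.52 to -0.70 and Ccl6 -1.26 to -0.64. Without the 7 arrays with tract transcripts the differences from HF-AL were -1.11 and -0.96.

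The inflammatory ligands Ccl3, Ccl4 and Ccl5, their neighbours on the chromosome, did not pass between HF-DR and HF-AL. Ccl3 differed by 0.10 ± 0.11 between HF-DR and HF-AL (95% interval -0.12 to 0.32) and Ccl4 by 0.16 ± 0.13 (-0.10 to 0.42). Ccl5, a T cell attractant made by T and NK cells, differed by -0.06 ± 0.20 (-0.47 to 0.36). Against t0 Ccl5 was lower by -0.46 ± 0.20 (limma, adjusted p = 0.048), a call that leaving out any 1 of 20 of the 36 arrays ended. It also ended under 8 of 13 alternative settings, and a second Ccl5 probe read -0.42 against t0 and did not pass. The intervals do not show that levels were equal.

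**Figure D3:**
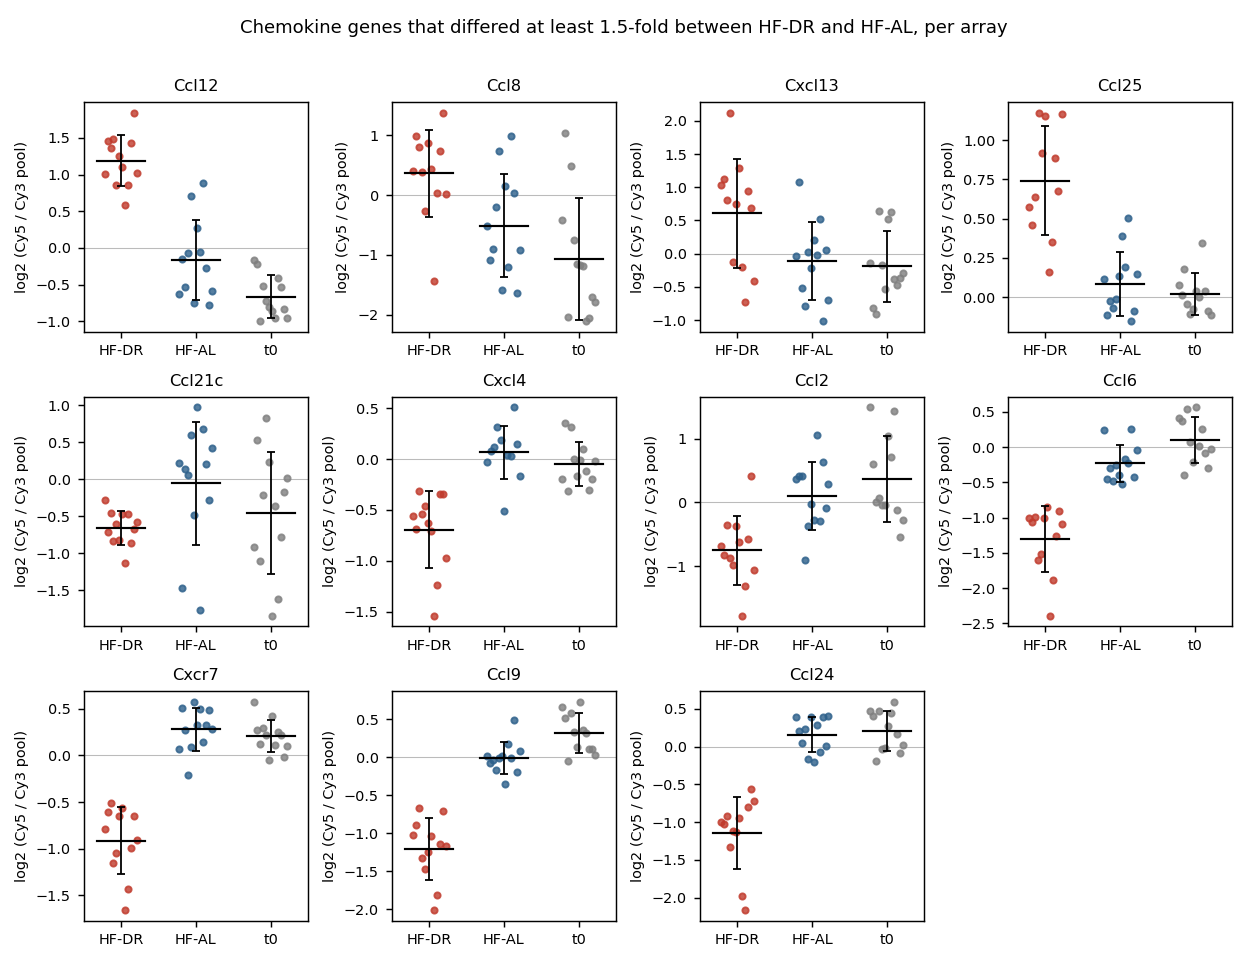
Level of the 11 genes that differed at least 1.5-fold between HF-DR and HF-AL, as log2 ratio to the pool on each array (points), with the group mean and SD (bars, n = 11 or 12). All 12 HF-DR points of Ccl24, Ccl9, Ccl6 and Cxcr7 lie under the HF-AL and t0 points; those of Ccl12 lie above every t0 point.

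Ligands that act on lymphocytes and dendritic cells moved in both directions. Ccl25 (chr8:4359916-4359975, mm8), the thymic and gut ligand of Ccr9, read 0.16, 0.68 and 1.17 in HF-DR mice (11 arrays), -0.15, 0.05 and 0.50 in HF-AL mice and -0.11, 0.01 and 0.35 in t0 mice. Of the 11 HF-DR arrays 3 lay within the range of HF-AL. Ccl25 was higher by 0.66 ± 0.10 than in HF-AL, 1.58-fold (limma, adjusted p = 4.2e-07), and by 0.72 ± 0.10 than in t0 (adjusted p = 7.5e-08), and a second probe gave 0.48 against HF-AL. Within slides it read 0.31 and 0.66 on the 2 with a value for HF-DR and HF-AL. Ccl17, a ligand of Ccr4 made by dendritic cells, read -0.79, -0.50 and -0.24 in HF-DR mice, -0.38, -0.04 and 0.67 in HF-AL mice and -0.20, 0.06 and 0.45 in t0 mice. It was lower by -0.47 ± 0.09 than in HF-AL (limma, adjusted p = 3.5e-05) and by -0.58 ± 0.09 than in t0 (adjusted p = 1.1e-06), where the groups did not overlap, and the 3 slides shared with HF-AL gave -0.60 to -0.21.

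The ligands of Ccr7 guide dendritic cells and T cells to lymph nodes, and 1 of them, Ccl21c, varied widely among mice fed without limit. Ccl21c, whose probe cannot be told from near-identical Ccl21 copies, read -1.14, -0.64 and -0.28 in HF-DR mice. In HF-AL mice it read -1.76, 0.17 and 0.97, and in t0 mice -1.85, -0.29 and 0.83. The HF-DR arrays thus lay inside the range of the others and close together, with an SD of 0.23 against 0.83 in HF-AL and 0.83 in t0 (SDs not tested). Its difference from HF-AL, -0.60 ± 0.27 (limma, adjusted p = 0.048), was lost when any 1 of 24 of the 36 arrays was left out, and read -0.32 without the arrays with tract transcripts. Ccl19, with SDs of 0.48 in HF-DR, 0.56 in HF-AL and 0.58 in t0 mice, did not share this pattern of spread. Ccl19 differed from HF-AL by -0.33 ± 0.21 and Ccl27, a skin ligand of Ccr10, by -0.13 ± 0.07, and neither passed.

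Cxcl13 (chr5:96201144-96201203, mm8), the B cell attractant of follicles, read -0.73, 0.78 and 2.13 in HF-DR mice, -1.02, -0.03 and 1.08 in HF-AL mice and -0.91, -0.33 and 0.65 in t0 mice, with overlap. It was higher by 0.73 ± 0.26 than in HF-AL (limma, adjusted p = 0.013) and by 0.80 ± 0.26 than in t0 (adjusted p = 0.007). Without the arrays with tract transcripts the first difference was 1.01, and with slide as a block 1.49. Xcl1, a ligand made by T and NK cells, was higher by 0.21 ± 0.07 than in HF-AL (limma, adjusted p = 0.007) and by 0.26 ± 0.07 than in t0 (adjusted p = 0.00092). It was well above background on only 10 HF-DR, 9 HF-AL and 6 t0 arrays, and with slide as a block neither difference passed (0.07 from HF-AL and 0.17 from t0). Xcl1 was not kept through t0, where it is lowest, so its difference from t0 is a description.

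The 3 measured ligands of Cxcr3 were each lower in HF-DR against HF-AL, where 35.9% of all genes were lower. Cxcl4, the platelet factor, read -1.54, -0.59 and -0.31 in HF-DR mice, -0.51, 0.07 and 0.51 in HF-AL mice (11 arrays) and -0.31, -0.07 and 0.35 in t0 mice. It was lower by -0.76 ± 0.12 than in HF-AL (limma, adjusted p = 9.3e-07) and by -0.65 ± 0.12 than in t0 (adjusted p = 9.6e-06), and its HF-DR and t0 arrays did not overlap. The 3 slides shared with HF-AL gave -1.07 to -0.14. Ppbp, another platelet chemokine outside the naming rule, was lower as well, by -0.67 ± 0.11 than in HF-AL (limma, adjusted p = 1.5e-06). Cxcl9, induced by interferon gamma, was lower by -0.56 ± 0.16 (limma, adjusted p = 0.0025), and by -0.34 without the arrays with tract transcripts, where it did not pass. On 1 of the 3 slides it was higher, by 0.19. Cxcl10, induced by interferons, was lower by -0.54 ± 0.22 than in HF-AL (limma, adjusted p = 0.035), a call that ended when HF-AL 8 or 9 or HF-DR 1, 2, 3 or 5 was left out (-0.40 at the weakest). It did not pass without the arrays with tract transcripts either (-0.57). Against t0 Cxcl9 was lower by -0.50 ± 0.16 (limma, adjusted p = 0.0066), and by -0.31 without those arrays, where it did not pass, and Cxcl10 differed by -0.26 ± 0.22, which did not pass.

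Among the other CXC ligands, Cxcl1, which draws neutrophils, was lower in HF-DR by -0.36 ± 0.10 than in HF-AL (limma, adjusted p = 0.0018) and by -0.47 ± 0.10 than in t0 (adjusted p = 8.3e-05). It was near background in restricted mice, with a signal well above it on 8 HF-DR arrays against 12 HF-AL and 12 t0 arrays. Cxcl1 was thus kept only through HF-AL and t0, the groups where it is high, and its differences are a description. With slide as a block the Cxcl1 difference from HF-AL was -0.30 and did not pass, and the 3 shared slides gave -1.17 to 0.11. Cxcl16, a membrane-bound ligand of Cxcr6, was lower by -0.47 ± 0.15 than in HF-AL (limma, adjusted p = 0.006), and the 3 shared slides gave -0.70 to -0.37, but its second probe read -0.18 and did not pass. Cxcl16 against t0 was at the threshold, -0.33 ± 0.15 (limma, adjusted p = 0.05), and leaving out any 1 of 28 of the 36 arrays ended that call. Without the 7 arrays with tract transcripts Cxcl16 was lower by -0.61 than in HF-AL and by -0.60 than in t0, and passed in both.

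Cxcl12 and its 2 receptors are given together. Cxcr7 (chr1:92046399-92046458, mm8, now Ackr3), which takes up Cxcl12 without signalling through G proteins, read -1.66, -0.85 and -0.51 in HF-DR mice. In HF-AL mice it read -0.21, 0.30 and 0.58, and in t0 mice -0.05, 0.22 and 0.57. No HF-DR array reached any other array. It was lower by -1.19 ± 0.11 than in HF-AL, 2.29-fold (limma, adjusted p = 3.2e-12), and by -1.12 ± 0.11 than in t0, 2.18-fold (adjusted p = 1.5e-11), and the 3 shared slides gave -1.12 to -0.79. Cxcl12, made by stromal cells, differed by -0.21 ± 0.11 from HF-AL (11 HF-AL arrays, 95% interval -0.43 to 0.01), which did not pass, and was lower than in t0 by -0.43 ± 0.11 (limma, adjusted p = 0.00069). A second Cxcl12 probe, above background on all 36 arrays, read 0.10 ± 0.08 against t0 and did not pass, so the probes differ in sign. The mean of both was lower by -0.16 and passed, and with slide as a block the first probe's difference was -0.31 and did not pass. Cxcr4, its signalling receptor, differed by -0.17 ± 0.09 from HF-AL and -0.14 ± 0.09 from t0, and neither passed. Differences between these 3 genes were not tested.

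Of the other receptors, Ccr6, on B cells and dendritic cells, was well above background on 10 HF-DR, 6 HF-AL and 8 t0 arrays. It was thus kept through HF-DR alone, the group where it is high, and its differences of 0.22 ± 0.07 from t0 and 0.16 ± 0.07 from HF-AL are a description. Only the first passed in the fit over all arrays, and the second passed in 4 alternatives. Ccr3, Ccr7, Cxcr3 and Cxcr6 differed by -0.09 to -0.02 between HF-DR and HF-AL, and none passed. Receptors of T and NK cells, Cxcr3 and Cxcr6, thus gave differences of -0.02 ± 0.16 and -0.09 ± 0.12 there.

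Cx3cl1 and Cxcl14 were the remaining ligands. Cx3cl1, a membrane-bound ligand made by endothelium and epithelium, read -0.74, -0.44 and 1.31 in HF-DR mice, -0.68, -0.13 and 2.02 in HF-AL mice and -0.98, -0.40 and 0.24 in t0 mice. Its 5 highest arrays, HF-AL 9, HF-AL 7, HF-DR 9, HF-DR 8 and HF-AL 5, were all among the 7 with tract transcripts. Its differences did not pass in any comparison. Cxcl14 differed by -0.24 ± 0.19 from HF-AL and by -0.37 ± 0.19 from t0 and did not pass, but without those 7 arrays it was lower, by -0.42 and by -0.68, and passed in both. Leaving out HF-DR 8 alone was enough for both to pass, at -0.39 and -0.51, and leaving out HF-DR 9 for the second, at -0.47.

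Against t0, 20 of the 33 genes changed in HF-DR mice, 6 higher (Ccr6 and Xcl1 among them) and 14 lower (Cxcl1 among them), or 60.6%. The share over all genes was 61.8% (28.8% higher, 33% lower). Ccr6, Xcl1 and Cxcl1 were kept only through the group or groups that read higher. The HF-DR and t0 arrays did not overlap for 7 genes (Ccl24, Ccl6, Ccl9, Ccl17, Cxcl4, Ccl12 and Cxcr7), against 16.6% of all genes. The comparisons with HF-AL and with t0 share the HF-DR arrays, and their values are given side by side for that reason.

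Between HF-AL and t0 mice none of the 33 genes passed (limma), where 0.685% of all genes did. At an unadjusted p under 0.05 there were 5 (Ccl12, Ccl9, Ccl6, Cx3cl1 and Ccl11), and 13.5% of all genes reached that level. Every alternative setting also gave 0. Ccl12 differed by 0.50 ± 0.16 (limma, adjusted p = 0.14), Ccl9 by -0.33 ± 0.12 (adjusted p = 0.21) and Ccl6 by -0.33 ± 0.14 (adjusted p = 0.29). Cx3cl1 differed by 0.62 ± 0.27. Without the arrays with tract transcripts the differences of Ccl12 and Cx3cl1 were smaller, 0.23 and 0.16. For Ccl2 the interval of the difference ran from -0.72 to 0.20, so a change within it over 12 weeks of unlimited feeding could not be told from none with 12 arrays a group.

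Some of the genes varied together among mice of 1 group. For 6 pairs of chromosome neighbours or ligands of a shared receptor, Pearson's r was computed in each group (18 correlations, 2-sided permutation tests, Benjamini-Hochberg adjustment over the 18). The pairs were chosen after their values were seen, so the tests only describe them, and 14 of the 18 passed at adjusted p under 0.05. Correlations of other gene pairs were not computed, so no background stands beside this count. Ccl2 and Ccl7 gave r = 0.85 in HF-DR, 0.84 in HF-AL and 0.97 in t0 mice (Spearman's rho 0.89, 0.70 and 0.85), and 0.77, 0.56 and 0.94 without the 2 arrays farthest from the median of Ccl2. Ccl9 and Ccl6 gave 0.91, 0.78 and 0.93 (rho 0.82, 0.90 and 0.92), and 0.72, 0.57 and 0.88 without the 2 extreme arrays. Ccl12 and Ccl8 gave 0.89, 0.86 and 0.55 (rho 0.80, 0.75 and 0.44). That of t0 mice did not pass and was 0.17 without the 2 extreme arrays, against 0.81 in HF-DR and 0.64 in HF-AL. The arrays HF-AL 5, 7 and 9, which hold tract transcripts, were the highest of HF-AL for both genes. They read 0.70, 0.27 and 0.88 for Ccl12 and 0.74, 0.15 and 0.99 for Ccl8. Correlations without the arrays with tract transcripts were not computed for any pair.

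Ccl3 and Ccl4, which passed in no comparison, gave r = 0.82, 0.61 and 0.79 (rho 0.88, 0.70 and 0.70). The Ccr7 ligands Ccl19 and Ccl21c gave 0.84, 0.80 and 0.87 (rho 0.74, 0.88 and 0.86), and the HF-DR value was 0.53 without the 2 extreme arrays. Cxcl9 and Cxcl10, which share Cxcr3 and lie near each other on chromosome 5, gave 0.28, 0.24 and 0.55 (rho 0.27, 0.23 and 0.30), and none of these passed. Slides held too few arrays of a group for a within-slide value, and whether probes of similar genes bind each other's RNA was not tested.

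**Figure D4:**
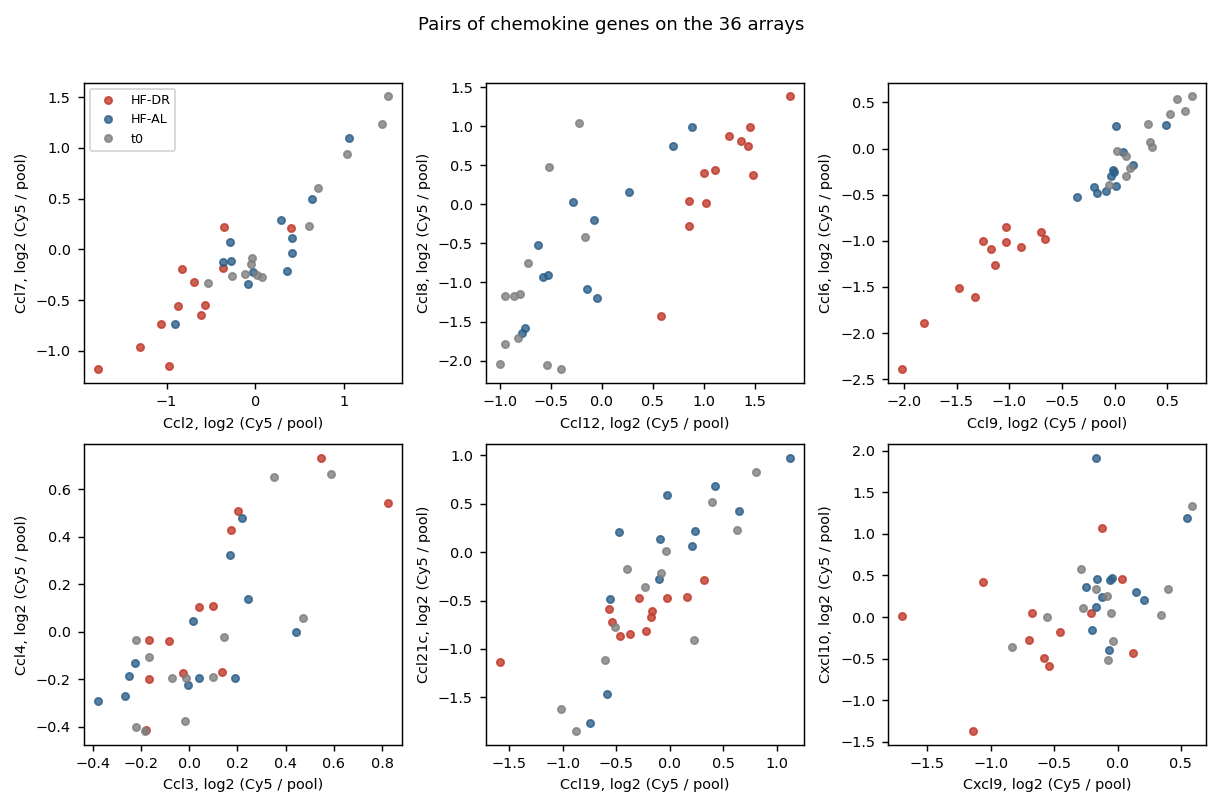
Levels of 6 pairs of chemokine genes, each as log2 ratio to the pool on the 36 arrays, coloured by group. Ccl2 and Ccl7, Ccl9 and Ccl6, and Ccl19 and Ccl21c rise together in every group (r from 0.78 to 0.97). Without the 2 extreme arrays of a group their r was as low as 0.53. Points of Ccl12 and Ccl8 are looser in t0 (r = 0.55, and 0.17 without the 2 extreme arrays), and those of Cxcl9 and Cxcl10 scatter (r from 0.24 to 0.55).

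Levels of cell markers differed between the groups as well, and their counts are to be read against the 28.8% of all genes that were higher and the 35.9% that were lower. Of 25 macrophage markers 20 were lower and 1 higher in HF-DR against HF-AL, with Lyz2 at -1.37 ± 0.13 and Csf1r at -0.95 ± 0.10 (limma). The mean level of the list ran from -1.16 to -0.27 in HF-DR, -0.18 to 0.22 in HF-AL and -0.18 to 0.45 in t0 mice. Of 15 fibroblast and preadipocyte markers 13 were lower and none higher, with Col1a1 at -2.05 ± 0.11, and the list's mean ran from -1.11 to -0.57 in HF-DR mice, 0.11 to 0.31 in HF-AL mice and 0.01 to 0.44 in t0 mice. Neither list overlapped between HF-DR and the other groups. Of 17 T and NK cell markers 2 were higher and 1 lower, and their mean ran from -0.31 to 0.33 in HF-DR, -0.35 to 0.04 in HF-AL and -0.30 to 0.53 in t0 mice.

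Of 9 monocyte and dendritic cell markers 3 were higher and 5 lower, with Chil3 at 1.95 ± 0.23 and Batf3 at -1.08 ± 0.10. Neutrophil and eosinophil markers were split too (2 of 8 higher, 1 lower), with S100a9 at 2.25 ± 0.18 and Ear1 at -1.26 ± 0.11. Of 8 mast cell markers 4 were lower and 1 higher, and of 6 B cell markers 3 were higher and 2 lower, with Ighm at -2.71 ± 0.17 and Ms4a1 at 0.92 ± 0.24. Of 13 endothelial and lymphatic markers 7 were lower and 1 higher, of 11 mesothelial markers 6 were lower, and of 14 mature adipocyte markers 8 were lower and 1 higher, where 64.8% of all genes changed either way. Of 3 lymph node markers measured 1 was higher and 1 lower. Foxp3, Elane, Ngp and Glycam1 were well above background on 0 to 2 arrays and were not measured. The part of these cell types in the chemokine differences was not tested.

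**Figure D5:**
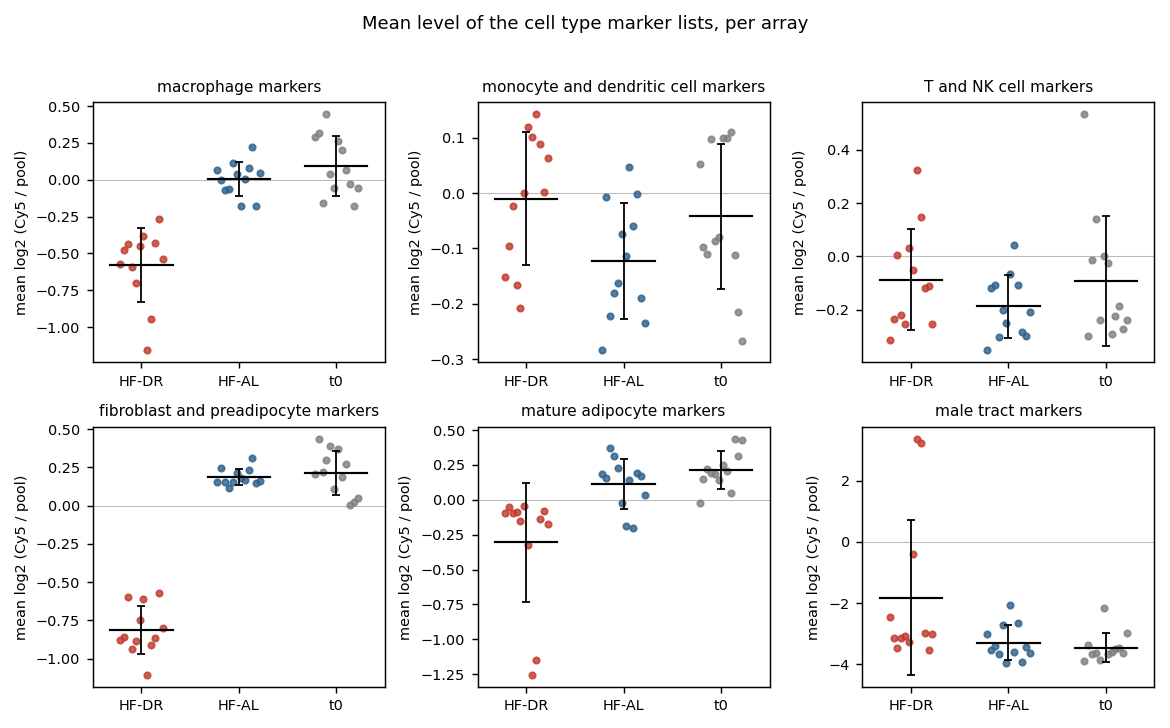
Mean level of 6 marker lists on each array (points, log2 ratio to the pool), with group mean and SD (bars, n = 12). The HF-DR arrays lie below all others for macrophage and for fibroblast markers, while those of T and NK cells overlap; HF-DR 8 and 9 stand out for mature adipocyte and male tract markers.

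Genes that act around the chemokines were counted by list, in HF-DR against HF-AL, where 28.8% of all genes were higher and 35.9% lower. Of 6 atypical and chemerin receptors besides Cxcr7, 2 rose and 2 fell. Ackr2, which removes inflammatory CC chemokines, fell (-1.30 ± 0.15, limma, adjusted p = 1e-09), as did Ackr4, which removes Ccl19, Ccl21 and Ccl25 (-0.29 ± 0.08, adjusted p = 0.0021). The chemerin receptors Cmklr1 (0.34 ± 0.05) and Ccrl2 (0.39 ± 0.08) rose, while chemerin itself, Rarres2, fell by 2.29 on the log2 scale (SE 0.09, limma, adjusted p = 5.7e-22). Rarres2 belongs to a list of 10 other chemoattractants, of which 5 fell and 1 rose, the cytokine Mif (0.43). Among 30 genes of receptor signalling 5 rose and 16 fell, a share near the 64.8% of all genes that changed. Grk3, a kinase that desensitises receptors, rose (1.84 ± 0.11, limma, adjusted p = 2e-16), and so did Rgs16, which shortens G protein signals (1.49 ± 0.12), while Ptk2b (-0.64 ± 0.05) and Rgs10 (-0.83 ± 0.09) fell.

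Of 24 measured genes upstream of chemokine transcription 16 fell and 2 rose, against 35.9% lower and 28.8% higher over all genes. The interferon gamma receptor chain Ifngr1 (-1.08 ± 0.09), the NF-kB subunits Nfkb1 (-0.47 ± 0.04) and Nfkb2 (-0.45 ± 0.06) and the NF-kB target Tnfaip3 (-0.87 ± 0.09) fell, and the adaptor Myd88 rose (0.27). Tnf, Il1a and Il6 were too dim to be measured. Of 16 genes that anchor or cleave chemokines 11 fell and none rose, among them the glypican Gpc1 (-1.12 ± 0.10), the heparan sulfate enzyme Hs6st1 (-0.76 ± 0.07), the protease Mmp9 (-0.63 ± 0.08) and Cd44 (-0.86 ± 0.11). The median differences of these 5 lists were -0.19 for atypical and chemerin receptors, -0.53 for chemoattractants, -0.23 for signalling, -0.35 for upstream genes and -0.33 for anchoring and cleavage, against -0.04 for all genes.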

How the data were processed

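Per the labels, RNA of each mouse was labelled with both dyes, and the Cy3 products were pooled as the common channel. Per the file headers, the authors read the scans with Feature Extraction 9.5.3.1 of Agilent. The deposited spot intensity values (mean signal, median local background) are linear and not normalised, and the processed ones are corrected for background and dye. The authors' deposited series matrix holds log2 values of 22510 probes that follow the Cy5 signal; the steps behind them are not given in the sources used here. Flags are scanner marks.

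Spots with a net signal under -50 (84 spots, 12 arrays) were set aside. Background was corrected by normexp (offset 50) and ratios by loess within arrays (4 iterations). Spots of a probe were averaged, and of each gene the brightest of the passing probes (24706 in all) was used. The comparisons used 1 fit of 36 arrays and 16497 genes with limma 3.58.1 (R 4.3.3, with the data.table package at version 1.17.8), two-sided, Benjamini-Hochberg adjusted. In simulated data of 16497 genes with independent noise, 50 genes were changed by each size between HF-DR and HF-AL. There this test found 82% of genes changed by 0.5 and 50% of those changed by 0.3. In the measured data 64.8% of genes changed, which moves the adjusted threshold, so these shares do not carry over to it. Correlations used Python 3.11.15 with numpy 2.4.6 and scipy 1.17.1 (100000 permutations), and figures used matplotlib 3.10.9. Promoters come from RefSeq (GRCm38.p6), and probe positions (mm8) from the files.

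All kept genes are named, and of each list at most 4 genes of smallest adjusted p, plus at most 1 of the other direction. Some genes that fit these rules are not reported here and stand outside the counts of kept genes, while marker lists and shares over all genes include them. Genes and lists were chosen with earlier results of these data known; Ppbp beside Cxcl4 and the pairs were chosen after their values were seen. Alternatives were another background correction, processed signals, the series matrix, 2 scalings, 2 filters, probe means, slide and replicate blocks and left-out arrays (that with HF-DR 1 beside the tract arrays was added after seeing the data). The number of arrays limits the precision.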

Additional observations from a re-analysis of the deposited data

How the results depend on the processing

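Of the 33 chemokine genes, 16 to 21 passed between HF-DR and HF-AL under the 13 alternatives run on all genes, 16 to 22 between HF-DR and t0, and 0 between HF-AL and t0. Of all genes 39.9% to 67.8%, 37.7% to 66.4% and 0.257% to 1.28% passed there. The lowest shares came without a filter on dim probes, where 17, 18 and 0 of the 33 passed. Only 30 of the 33 were in the series matrix fit, and 29 in that with the filter at 12 arrays of a group. Leaving out each array in turn gave 17 to 20, 18 to 21 and 0 (shares over all genes not given). The counts were 21, 22 and 0 with the processed signals (67.8%, 64.8% and 1.28% of all genes). They were 16, 16 and 0 of 30 genes with the series matrix (64.9%, 62.2% and 0.787% of all genes). Quantile scaling of the summed signal leaves ratios as they are and gave the same values. With the replicate block, numbered as in the labels, the counts were 19, 19 and 0 (64.7%, 62.1% and 0.855% of all genes). Same-numbered arrays deviated together with r from -0.14 to 0.40 (HF-DR and HF-AL), -0.19 to 0.04 (HF-DR and t0) and -0.46 to 0.29 (HF-AL and t0). Their r was over 0.1 in 9, 0 and 2 of 12 pairs, and the closest array shared the number in 2, 0 and 1. Since some pairs fell short, the numbers were not taken to pair the arrays. With slide as a block the counts were 16, 18 and 0 (52.3%, 56.1% and 0.515% of all genes). There 13 and 17 of the genes called were shared with the fit without it. With slide as a random block (added after seeing the data, correlation 0.033) they were 20, 20 and 0 (64.9%, 62.1% and 0.867% of all genes).

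No gene that passed changed sign in those 13 alternatives or with 1 array left out. Calls ended under at least 1 of the 13 for Ccl7, Ccl8, Ccl11, Ccl21c, Cxcl1, Cxcl9, Cxcl10 and Xcl1 against HF-AL and for Ccl5, Ccl7, Cxcl9, Cxcl12, Cxcl16 and Xcl1 against t0. Others passed under at least 1, Ccl27, Ccr6, Cxcl12, Cxcl14 and Cxcr4 against HF-AL and Ccr7 and Cxcl14 against t0. Among genes that did not pass, Ccr6 against HF-AL passed without 1 of 8 arrays, Ccl27 without 1 of 3, Cxcl12 without HF-DR 5 and Cxcr4 without HF-AL 1, and Ccr7 against t0 without 1 of 3. Within single slides 11 values of genes that passed changed sign: between HF-DR and HF-AL, Ccl7 0.15 and Cxcl9 0.19 on slide 14 and Cxcl1 0.11 on slide 15; between HF-DR and t0, Cxcl12 0.36 and Xcl1 -0.21 on slide 10, Ccl8 -1.31, Ccr6 -0.092 and Xcl1 -0.014 on slide 11, Ccl7 0.072 on slide 12, Ccl8 -0.077 on slide 13 and Ccl7 0.37 on slide 15. These rest on few arrays a slide and have no test, and the cause was not tested. Genes close to background (Ccr6, Xcl1 and Cxcl1) are limited by their signal.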
